A study of Mus musculus with 5 samples.

Results

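In 11-day mouse salivary gland organoids (mSGOs), 300 barcodes with the highest summed share of 6 pro-acinar genes were described against the rest of the same library. mSGOs are cultures that grow out of dispersed submandibular gland cells embedded in a gel. The 6 genes were Chrm3, Alcam, Clcn3, Aqp5, Bhlha15 and Slc12a2. A barcode was eligible with at least 2000 unique molecular identifiers (UMIs, each a captured transcript) and at most 5% of them from mitochondrially encoded genes. This left 9367 of the library's 14266 barcodes, from which the 300 with the highest share of UMIs from the 6 genes were taken, of 72788 barcodes in the whole series. Members were thus selected on the measured UMIs of the 6 genes, whose levels in them are a description and were not tested. The series held 5 libraries, namely fresh gland tissue, untreated mSGOs of 11 days, and 7-day mSGOs that were untreated or had received 7 Gy of photons or protons at day 5. All came from C57BL/6 mice, which were female and 8 to 12 weeks old per the study's methods, and only non-irradiated organoids were sampled at day 11. The 11-day mSGOs were made from another batch of animals and sequenced separately, and with 1 library per group no difference was tested. Intervals are given at 95% and cover counting error only, so differences between animals or cultures lie outside them.

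Acinar cells are the saliva-secreting cells of the gland. They take up chloride through the sodium-potassium-chloride cotransporter Slc12a2, release fluid through the water channel Aqp5 when acetylcholine acts on the muscarinic receptor Chrm3, and keep their secretory state through the transcription factor Bhlha15 (MIST1). Ducts then carry and modify the saliva, with striated ducts reabsorbing sodium and basal duct cells lying beneath the luminal layer. Clcn3 is a chloride-proton exchanger of intracellular membranes that most tissues express, and Alcam (CD166) is an adhesion molecule found on many epithelial and mesenchymal cells.

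Most members were barcodes rich in Alcam, in Chrm3 or in both, and as a set the members did not have an acinar profile. Exceptions were the members at ranks 7 and 22, with 10 and 6 UMIs of Aqp5 and 0 of Alcam and Chrm3. Alcam gave 1173 and Chrm3 742 of the UMIs of the 6 genes in the members, while Clcn3 gave 262, Slc12a2 117, Aqp5 46 and Bhlha15 0. Of 19 genes listed as secretory products, 12 had 0 UMIs in the members, as 5 of them had in the whole library. The members as a set are called Alcam/Chrm3-high barcodes below, after the 2 genes with the most UMIs.

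The sequences around the starts of the 2 leading genes and of Aqp5 are shown because these 3 genes are compared with each other below. Each runs from 250 bases before to 50 bases after a RefSeq transcript start (GRCm38.p6). For Alcam and Aqp5 this is the start of the gene as listed, whereas the Chrm3 window lies wholly within the listed gene, which begins at base 10361062 on the minus strand. Chrm3 lies on the minus strand (chr13:10360754-10361053), Alcam on the minus strand (chr16:52453032-52453331) and Aqp5 on the plus strand (chr15:99590778-99591077). Capitals mark GC boxes, the letters GGGCGG on either strand.
Chrm3: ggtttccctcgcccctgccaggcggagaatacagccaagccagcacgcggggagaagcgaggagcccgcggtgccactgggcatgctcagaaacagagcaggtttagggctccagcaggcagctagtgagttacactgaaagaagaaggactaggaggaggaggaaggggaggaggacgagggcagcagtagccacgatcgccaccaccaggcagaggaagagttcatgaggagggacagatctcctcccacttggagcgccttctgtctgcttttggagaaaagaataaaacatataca
Alcam: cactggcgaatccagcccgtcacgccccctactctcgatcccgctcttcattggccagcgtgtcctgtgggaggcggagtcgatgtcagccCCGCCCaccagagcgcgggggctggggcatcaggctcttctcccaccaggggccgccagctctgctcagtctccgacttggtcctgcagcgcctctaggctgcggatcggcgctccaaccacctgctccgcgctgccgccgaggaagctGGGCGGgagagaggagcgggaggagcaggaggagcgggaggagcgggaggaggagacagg
Aqp5: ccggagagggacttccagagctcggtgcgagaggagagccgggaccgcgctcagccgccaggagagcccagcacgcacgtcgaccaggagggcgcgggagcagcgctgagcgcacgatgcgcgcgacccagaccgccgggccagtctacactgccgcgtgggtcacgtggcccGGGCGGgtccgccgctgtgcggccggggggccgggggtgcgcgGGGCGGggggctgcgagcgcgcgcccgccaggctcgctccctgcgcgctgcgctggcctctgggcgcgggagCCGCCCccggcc
Alcam held 2 GC boxes, Aqp5 3 and Chrm3 none, and 35.7% of 32851 RefSeq promoters of this length held at least 1. G and C made up 57.3% of the Chrm3 window, 69.7% of that of Alcam and 79.7% of that of Aqp5. The letters CATATG, an E-box of the kind that Bhlha15 binds, were in none of the 3 windows and in 3.91% of all promoters. Neither were the letters AAGGTCA, a nuclear receptor half-site found in 4.72% of them. A match describes letters only, and counts at the 3′ end of transcripts do not tell which start was used.

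The members held 1072267 UMIs in all, with a median of 3295.5 UMIs (2002 to 10654) and 1717.5 genes per barcode, against 3206 UMIs and 1660 genes in the 9067 other eligible barcodes. The UMIs of the 6 genes that placed a barcode among the members were few, with a median of 7 (4 to 21) per member and of 1 elsewhere. Their share ran from 0.175% to 0.439%, with a median of 0.206%, against a median of 0.0402% in the others. The last member had 5 such UMIs among 2853 and the first barcode outside had 6 among 3426, so both had a share of 0.175%. Within 10% of the share of the last member lay 102 members above it and 151 other barcodes below it.

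Most members carried 1 to 3 of the 6 genes. In 44 members a single gene was detected, in 124 there were 2, in 108 there were 3, in 22 there were 4 and in 2 there were 5, and no member had all 6. Alcam had the most UMIs in 160 members (Alcam-led) and Chrm3 in 102 (Chrm3-led). Clcn3 led in 9 members, Aqp5 in 3 and Slc12a2 in 2, and 24 had a tie.

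**Figure D1:**
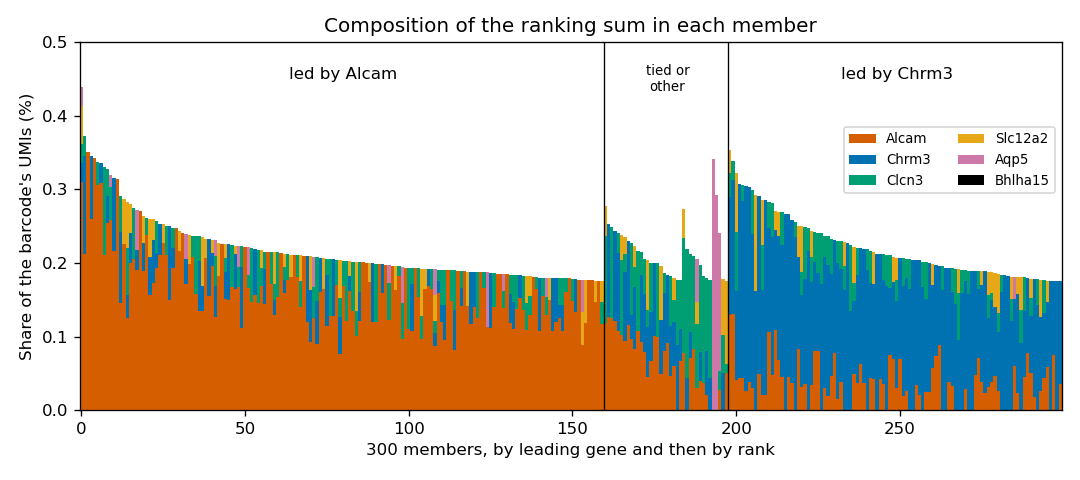
Each of the 300 bars is a member, the vertical axis gives the share of its UMIs (%) and the colours give the 6 genes. In the 160 Alcam-led members the bars are mostly Alcam, in the 102 Chrm3-led members mostly Chrm3, and Bhlha15 does not appear in any bar.

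Chrm3, the muscarinic receptor through which acetylcholine starts fluid secretion (486 kb long on chromosome 13, GRCm38.p6), was detected in 189 members (63.0%) and in 18.3% of the others. Its level was 692 UMIs per 1000000 UMIs of the set (CPM) in the members (643 to 744) and 84.6 CPM in the others (81.5 to 87.8). Single members held 0 to 13 Chrm3 UMIs, with a median of 2. In the 300 barcodes richest in basal duct markers Chrm3 was found in 5.00% (2.83 to 8.11) at a median of 3747 UMIs. It was found in 38.7% (33.1 to 44.4) of the 300 richest in luminal duct markers, at a median of 4410.5 UMIs and a level of 167 CPM, and in 28.7% of them after thinning to 2000 UMIs. It was found in 23.7% (19.0 to 28.9) of the 300 richest in squamous markers. Both unthinned shares were above that of the others as a whole, and 20 of the luminal duct-like barcodes were members.

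Alcam (204 kb, chromosome 16) was the most widespread of the 6, with UMIs in 265 members (88.3%) and in 50.3% of the others. Its level was 1094 CPM (1032 to 1158) against 264 CPM (258 to 269), and members held 0 to 17 UMIs with a median of 3. Basal duct-like barcodes had it in 61.7%, at 442 CPM (405 to 481). Luminal duct-like barcodes, which are deeper, had it in 70.7%, at a lower level of 360 CPM (330 to 392). After thinning, the shares were 46.7% (40.9 to 52.5) and 50% (44.2 to 55.8) in the same order.

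Clcn3 (72.9 kb, chromosome 8) was found in 54.3% of members and 30.1% of the others, at 244 (216 to 276) and 106 CPM (103 to 110). Slc12a2 (68.3 kb, chromosome 18), which loads acinar cells with chloride, was found in 77 members (25.7%) and 12.7% of the others, at 109 (90.2 to 131) and 41.0 CPM (38.9 to 43.3). Of the 300 luminal duct-like barcodes, which are deeper, 75 had Slc12a2, at 69.8 CPM, and 42.0% had Clcn3. After thinning to 2000 UMIs Slc12a2 was found in 17.7% (13.5 to 22.5) of members and in 30 of the 300 luminal duct-like barcodes, and Clcn3 in 37.7% and 23.7%.

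The genes most particular to acinar cells were rare or not found. Aqp5, the water channel of the acinar apical membrane (3.80 kb, chromosome 15), was found in 20 members (6.67%, 4.12 to 10.1), and 1 of them held 10 of its 46 UMIs. The share was 3.52% in the others. It was 6.67% (4.12 to 10.1) in the 300 barcodes richest in basal duct markers and 7.33% (4.65 to 10.9) in the 300 richest in myoepithelial markers, which is within the interval of the members. Bhlha15, the transcription factor of secretory cells (4.16 kb, chromosome 5), had 0 UMIs in 300 members, an exact upper limit of 1.22% of barcodes with a UMI, and 1 UMI in all others together.

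To read each gene in barcodes that it had not helped to choose, the ranking was repeated without it. The log2 ratios of the newly chosen 300 barcodes to the others then lay between -0.56 and 0.25 for the 5 genes with UMIs in them. Chrm3 was at 84.5 CPM (68.2 to 104) in the 300 barcodes ranked by the other 5 genes and at 104 CPM in the rest, a log2 ratio of -0.30 (-0.62 to -0.0029). The Chrm3 ratio lay between -0.41 and 0.24 over 14 settings and was below 0 in 9 of them. Alcam was at 283 and 290 CPM, a ratio of -0.034 (-0.21 to 0.13).
The other 3 genes gave ratios with intervals that include 0, namely 0.15 (-0.11 to 0.40) for Clcn3, -0.56 (-1.75 to 0.33) for Aqp5 with 9 UMIs and 0.25 (-0.16 to 0.65) for Slc12a2. Here and below, ratios have 1 CPM added to each level and their intervals are those of the ratio without it.

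**Figure D2:**
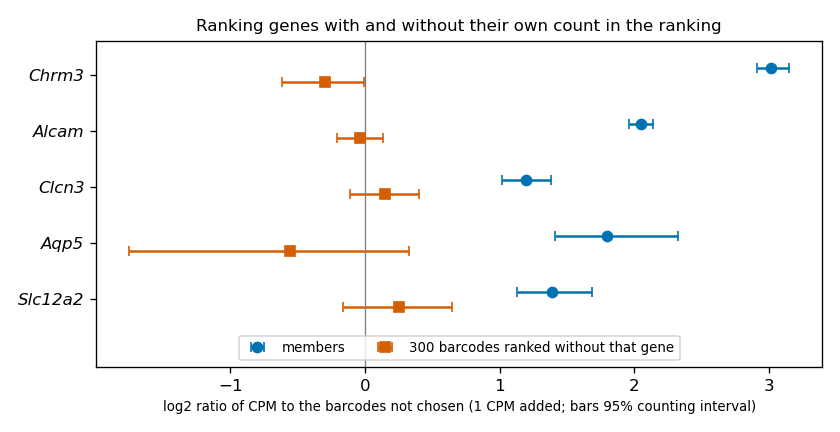
Circles give the log2 ratio of CPM between the members and the other barcodes, squares the same for 300 barcodes ranked without the gene itself, and bars the 95% counting interval. The circles lie between 1.19 and 3.02 because the gene took part in the ranking, whereas the squares lie between -0.56 and 0.25, and Bhlha15 is left out because it had 0 UMIs in both sets.

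The genes were also read pair by pair, in 300 barcodes ranked by a single gene. Barcodes ranked by Chrm3 alone had Alcam at 288 CPM against 290 CPM elsewhere (ratio -0.011, -0.18 to 0.16), and barcodes ranked by Alcam alone had Chrm3 at 89.2 against 104 CPM (-0.22, -0.53 to 0.068). Both intervals include 0. Slc12a2 was at 60.2 CPM in Chrm3-ranked barcodes and 42.6 CPM in the others (0.49, 0.11 to 0.86), and Chrm3 was in turn at 144 against 102 CPM in Slc12a2-ranked barcodes (0.49, 0.24 to 0.74).

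Aqp5 went the other way. Only 3 Aqp5 UMIs were found in Chrm3-ranked barcodes, or 2.87 CPM against 12.9 CPM elsewhere (-1.85, -4.45 to -0.61). Barcodes ranked by Aqp5 had Chrm3 at 42.4 against 106 CPM (-1.30, -1.75 to -0.92) and Alcam at 302 against 289 CPM (0.061, -0.096 to 0.21).

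The ranking was also repeated after each barcode's UMIs were split at random, on a part of them. It chose a set of barcodes that shared 156 with the members. In that set the 6 genes summed to 2686 CPM in the part used for ranking and 1148 CPM (1057 to 1244) in the part not used, against 545 CPM in the others. In the part not used, Chrm3 was at 374 CPM (323 to 430) against 96.0 CPM and Alcam at 562 (500 to 631) against 281 CPM. Clcn3 was at 108 CPM (81.5 to 140) against 112 CPM. Slc12a2 was at 75.1 (53.4 to 103) against 43.1 CPM, and Aqp5 at 28.9 (16.2 to 47.6) against 12.7 CPM with 15 UMIs.

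Acinar cells fill saliva with mucins, amylase and small secreted proteins. The list of secretory products held 19 genes, not all of them particular to acinar cells. The members had 0 UMIs of 12 of them, namely the neonatal acinar product Smgc, the mucin Muc19, and Prol1, Pip, Bpifa2, Dcpp1, Dcpp2, Lpo, Car6, Oit1, Dmbt1 and Tff2. Of these 12, Smgc, Prol1, Bpifa2, Dcpp2 and Tff2 had 0 UMIs in the others as well. Muc19, Car6, Dmbt1, Lpo, Oit1 and Pip had 1 to 28 UMIs in all others together, and Dcpp1 had 148, of which 147 were in 1 barcode, so these counts of 0 do not set the members apart. The 21 UMIs of Dcpp3 were all in 1 member. The amylase gene Amy1, which has near-identical copies that make its counts uncertain, had 45 UMIs in 40 members, 42.0 (30.6 to 56.2) against 34.8 CPM (0.26, -0.19 to 0.70). Agr2 had 5 UMIs in 2 members.

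The 4 products that passed the minimum of 50 CPM in the higher set were Wfdc2, Lcn2, Wfdc18 and Ltf. As a share of a barcode's UMIs, the 19 listed products had a median of 0.782% in the members, 0.673% in the others and 1.33% in luminal duct-like barcodes. Wfdc2, a small secreted protein of many epithelia, was in all 300 members at 7248 against 5817 CPM (0.32, 0.28 to 0.35), and Lcn2, an iron-binding defence protein, at 3435 against 2668 CPM (0.36, 0.32 to 0.41). Wfdc18 was lower, at 101 (82.6 to 122) against 298 CPM (-1.56, -1.85 to -1.29), and so was lactoferrin (Ltf), at 24.2 (15.8 to 35.5) against 55.8 CPM (-1.17, -1.82 to -0.65). Ltf was found in 3.67% of members and 3.32% of the others, and 1 member held 10 of its 26 UMIs in the members, so the share of barcodes with Ltf was not lower.

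The 300 barcodes ranked by Aqp5 and Bhlha15 in place of all 6 genes shared 19 with the members and looked different. They had Wfdc18 higher than the barcodes outside them (1.22, 1.12 to 1.33) and Sostdc1 likewise (1.42, 1.27 to 1.57), the opposite of the members. They also had the proliferation gene Mki67 (1.62) and Krt14 (0.46, 0.40 to 0.51) higher, and Ppargc1a (-1.29, -1.73 to -0.91) and Ptprd (-1.09, -1.33 to -0.88) lower. Of these barcodes 104 were in cluster 3 of the clustering described below and 32 in the myoepithelial-like cluster. Smgc and Muc19 had 0 UMIs there too. The gland products Dcpp1 and Dcpp3 were found in 3 barcodes of the whole library, and 1 of them held 321 of their 343 UMIs, so they describe single barcodes.

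Fluid secretion needs calcium signals, chloride and potassium channels and the sodium pump. Of such genes 10 of 30 passed the minimum, with a median log2 ratio of 0.18, 8 above 0 and 2 below, beside a median of 0.063 and 61.8% above 0 for all 3908 genes considered. In barcodes ranked by Alcam alone the median was -0.040 (3 of 11 above 0) and in those ranked by Aqp5 and Bhlha15 -0.32 (2 of 10). None of them differed 2-fold. As a share of a barcode's UMIs, the 30 genes had a median of 0.284% in the members and 0.247% in the others. This median was 0.285% in luminal duct-like, 0.279% in squamous-like, 0.185% in basal duct-like and 0.168% in myoepithelial-like barcodes. The bicarbonate cotransporter Slc4a4 was at 132 (112 to 156) against 84.6 CPM (0.64, 0.39 to 0.89). The calcium-activated chloride channel Ano1 was at 124 (104 to 147) against 94.8 CPM (0.38, 0.13 to 0.64), and the sodium pump subunit Atp1b1 at 797 against 624 CPM (0.35, 0.25 to 0.45). Another pump subunit, Atp1b3, had a ratio of -0.23. The muscarinic receptor Chrm1 and the purine receptor P2ry2 had 0 UMIs in the members and 18 each in the others, and the chloride channel Cftr 4.

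Regulators of the secretory state and of protein folding were close to the other barcodes. Of these genes 13 of 24 passed the minimum, with a median of 0.10, and all lay between -0.084 for the chaperone Hsp90b1 and 0.28 for Dnajc3. Xbp1, which expands the secretory apparatus, had a ratio of 0.045, and Spdef had 2 UMIs. End bud progenitor genes, which mark the growing tips of the embryonic gland, had a median of 0.032 (8 of 20). Sox10, Kit, Elf5 and Sox2 had 0 UMIs in the members and only 6, 5, 2 and 24 in the 9067 others, so these counts of 0 do not set the members apart. Ccnd1, a cyclin, was at 0.33, and Sox9 at -0.12. Sostdc1, an inhibitor of BMP and Wnt signals, was lower at 50.4 (37.8 to 65.7) against 135 CPM (-1.41, -1.84 to -1.04).

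Over all genes the Alcam/Chrm3-high barcodes differed little from the rest of the library. With the 6 ranking genes left out, 11 of 3908 genes (0.281%) were at least 2-fold higher and 8 (0.205%) at least 2-fold lower. These counts come from the contrast that the ranking set up. Of the 11, Adcy2, Chst9, Tc2n, Serpinb11 and Slit2 were below 50 CPM in the others and passed only through the members. Of the 8, all but Wfdc18 and Sostdc1 were below it in the members and passed only through the others. Haptoglobin (Hp), a secreted haemoglobin-binding protein, had the highest ratio, at 197 (171 to 225) against 62.3 CPM (1.64, 1.45 to 1.86), and was found in 18.0% of members and 7.86% of the others. Next came the adenylyl cyclase Adcy2 at 58.8 (45.1 to 75.2) against 19.2 CPM (1.57, 1.22 to 1.99), in 38 members.

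Ppargc1a, the coactivator that drives mitochondrial biogenesis, was at 243 (215 to 275) against 100.1 CPM (1.27, 1.09 to 1.46) and was found in 30.3% of members and 16.4% of the others. The transcription factor Dach1 was at 169.7 (146 to 196) against 72.2 CPM (1.22, 1.01 to 1.45). The receptor phosphatase Ptprd was at 637 (590.1 to 687) against 292 CPM (1.12, 1.01 to 1.24) and was found in 59.0% of members and 36.5% of the others. These 3 genes were thus present in many other barcodes too. Nr3c2, the mineralocorticoid receptor through which aldosterone acts, was just under 2-fold, at 88.6 (71.7 to 108) against 44.4 CPM (0.98, 0.68 to 1.30). The other 6 among the 12 highest ran from 1.04 for the RNA-binding protein Celf2 to 1.16 for the sulphotransferase Chst9, with Tc2n, Cyp1b1, Serpinb11 and Slit2 between them. Serpinb11 rested on 28 members.

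The lowest ratios included those of Sprr2f and Psca. Sprr2f, a cornified envelope protein of a family of closely related copies whose counts are uncertain, had 1 UMI in the members and 54.5 CPM in the others, and Psca 4 UMIs against 97.8 CPM. Sprr2f was found in 0.333% of members and 0.706% of the others, and Psca in 1.33% of members and 1.32% of the others, so the share of barcodes with Psca was about the same in both. The chemokines Ppbp, Cxcl2 and Cxcl5 had ratios of -2.48, -1.50 and -0.96. Cxcl5 was found in 8.67% of members and 8.72% of the others. The ratios of Sprr2f, Cxcl2, Cxcl5, Lgals7 and Krt13 were above 0 in at least 1 other setting. The calcium sensor Vsnl1 was found in 6.33% of members and 19.3% of the others (-1.50, -2.18 to -0.96), the galectin Lgals7 in 12.3% of members and 18.5% of the others (-0.98, -1.41 to -0.62) and the hypoxia-induced Egln3 in 11.3% of members and 19.0% of the others (-0.94, -1.46 to -0.51). Keratin 13 (Krt13) was at -0.96.

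Genes of striated and granular ducts had a median of 0.90 over the 4 of 13 that passed, which were Ppargc1a, Ptprd, the sodium channel subunit Scnn1a at 57.8 (44.3 to 74.1) against 36.0 CPM (0.67, 0.29 to 1.05) and the nuclear receptor Esrrg at 522 against 423 CPM (0.30, 0.18 to 0.43). Scnn1a passed only through its level in the members, so nothing is read from this median. Ppargc1a and Esrrg act on mitochondrial genes in many tissues. The secreted products of granular ducts were nearly absent, with 0 UMIs of Klk1 and Ren1 and 7 of Egf in the members. The sodium channel subunit Scnn1b, also below the minimum, had 14 UMIs in the members, or 13.1 against 4.17 CPM (1.44, 0.74 to 2.44).

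Luminal duct genes had a median of 0.12, with 10 of the 12 that passed above 0, of which Cldn3 passed only through the members and Krt19 only through the others. Ranked by Aqp5 and Bhlha15 the median was -0.21. Keratin 18 (Krt18) was at 1267 (1201 to 1337) against 926 CPM (0.45, 0.37 to 0.53), while its partner Krt8 was at 256 (227 to 289) against 234 CPM (0.13, -0.046 to 0.31). Krt7 was at 0.087, the tight junction protein Cldn4 at 0.25 and Clic1 at -0.019.

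Basal duct genes had a median of -0.23, with 8 of 10 below 0, and of 0.067 when ranked by Aqp5 and Bhlha15. Krt14 was at 1230.1 (1165 to 1298) against 1661 CPM (-0.43, -0.51 to -0.35), Krt17 at -0.27, Krt5 at -0.21 and the hemidesmosome collagen Col17a1 at 77.4 (61.7 to 96.0) against 125 CPM (-0.68, -1.02 to -0.38). Krt15 was an exception at 0.25. The ratios of Krt14, Krt5 and Krt17 were above 0 when Chrm3 was left out of the ranking. The p63 gene Trp63, which keeps epithelial cells in a basal state, was at 127 against 171 CPM (-0.43, -0.69 to -0.18). Of 7 genes listed for basal stem/progenitor cells (Itgb1, Cd44, Trp63, Nt5e, Itgb4, Itga6 and Itga3) 5 were below 0, with a median of -0.10. Among them were Itgb1 (CD29) at -0.10, Cd44 at 0.15 and the integrin Itga3, which passed only through the others, at -0.66. Cd24a was at 0.14, Cd164 at 0.26 and Nt5e at -0.19.

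The 6 myoepithelial genes that passed were all below 0, with a median of -0.35, and ran up to -0.032 for Csrp1. In barcodes ranked by Alcam alone 4 of 6 were above 0 (median 0.058), and ranked by Aqp5 and Bhlha15 all 6 (median 0.40). Sparc was at -0.51 and Tpm2 at -0.49. Acta2, the smooth muscle actin that defines these cells, had 14 UMIs, all in 1 member. Squamous genes had a median of -0.40 (5 of 20), with Krt6a at -0.43 and the cornified envelope precursor Sprr1a at 0.075. Krt13 passed only through the others, the whole list summed to 2942 CPM in the members and 2987 CPM in the others, of which Sprr1a gave 2570 and 2440 CPM, and its median was 0.28 in barcodes ranked by Alcam alone (6 of 7 above 0).

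The 22 genes of G2 and mitosis summed to 34.5 CPM in the members and 164 CPM in the others, with 2 UMIs of Mki67 and 1 of Top2a in 300 members, and none passed the minimum. Their share was 0 in the median barcode and in the upper quartile of both sets, and their sum was 200.4 against 159 CPM in barcodes ranked by Alcam alone and 493 against 148 CPM in those ranked by Aqp5 and Bhlha15. S phase genes summed to 311 CPM in the members and 338 CPM in the others. Their sum was 345 against 337 CPM in barcodes ranked by Alcam alone and 587 against 328 CPM in those ranked by Aqp5 and Bhlha15. Notch pathway genes had a median of 0.070 (9 of 21), with the receptor Notch1 at 0.19 and the target Hes1 at 57.8 against 57.3 CPM. Ranked by Aqp5 and Bhlha15 the Notch median was -0.11, with 0 of 9 above 0. Wnt pathway genes had a median of 0.085 (9 of 24), and the ligand Wnt10a, which passed only through the others, was at 26.1 (17.4 to 37.7) against 50.2 CPM (-0.92, -1.54 to -0.41). The Wnt median was -0.052 in barcodes ranked by Alcam alone and -0.12 in those ranked by Aqp5 and Bhlha15. Genes of EGF receptor and FGF signalling had a median of -0.0026 (7 of 17).

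Hypoxia and glycolysis genes had a median of -0.25, with all 9 that passed below 0, of which Bnip3 and Egln3 passed only through the others. In barcodes ranked by Alcam alone the median was 0.017 and in those ranked by Aqp5 and Bhlha15 0.22. Among the 9 was the lactate dehydrogenase Ldha at 385 (349 to 424) against 479.9 CPM (-0.32, -0.46 to -0.18). Immediate early genes had a median of -0.12 (12 of 17), with Fos at -0.30 and Jun at 0.15. The median was 0.12 for interferon response (6 of 20) and 0.16 for antigen presentation (4 of 13, all above 0). The antigen presentation median was -0.048 in barcodes ranked by Alcam alone and -0.10 in those ranked by Aqp5 and Bhlha15, with 3 of 4 below 0 in each. Antioxidant and iron genes, of which 15 of 15 passed, had a median of 0.017, with the sulfiredoxin Srxn1, which passed only through the members, at 0.77.

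Markers of immune, endothelial and fibroblast cells and of ionocytes were at or near 0 in the members. The immune list had 6 UMIs, 5 of them of Lyz2 in 1 member, the endothelial list 5, the ionocyte list 5 and the fibroblast list 0. The nerve list had 69 UMIs, or 64.35 against 52.6 CPM, and of its genes only Mbp passed, at 0.25.

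Measures of RNA content differed between the members and the others. Genes spanning at least 100 kb, the ranking genes left out, made up a median of 13.8% of the UMIs of a member and 12.3% of those of another barcode. Ribosomal protein genes made up 14.8% and 17.4%, and the mitochondrial share had a median of 2.77% and 2.63%. In the luminal duct-like barcodes these medians were 10.5% for long genes, 13.7% for ribosomal protein genes and 2.77% for the mitochondrial share. The last 2 differences are thus not particular to the members. All 20 ribosomal protein genes of the list that passed were below 0, with a median of -0.23. Ranked by Aqp5 and Bhlha15, all 20 were above 0 (median 0.18). Genes with nuclear retained transcripts had a median of 0.16 (6 of 11), with Neat1 at 0.42 and Malat1 at 0.016. Mitochondrially encoded genes had a median of 0.12, with all 12 that passed above 0 (-0.011 and 6 of 12 when ranked by Alcam alone), and nuclear genes of the respiratory chain of -0.010 (19 of 20).

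The ratio of a gene moved with its length. Genes under 10 kb had a median of -0.028, with 44.1% above 0, and genes of at least 300 kb a median of 0.18, with 82.5% above 0. Ptprd, Celf2 and Dach1, which were at least 2-fold higher and above the minimum in both sets, span at least 300 kb. Chrm3 and Alcam are themselves long. Against the barcodes nearest to each member in the share of long genes, 6 genes were at least 2-fold higher and 4 lower, and the part of gene length in these differences was not tested.

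The lead groups are defined by which of the 6 genes has the most UMIs, so their levels of these genes follow from the grouping. Chrm3-led members had Chrm3 at 1535 CPM and Alcam at 348 CPM, and Alcam-led members had them at 197 and 1664 CPM. Aqp5 had 1 UMI in the 102 Chrm3-led members and 20 in the 160 Alcam-led members. Of 2144 genes with at least 100 CPM in the higher set, 23 (1.07%) were at least 2-fold higher and 14 (0.653%) lower in Chrm3-led members than in the barcodes outside the members. In Alcam-led members 2 were higher and 2 lower (0.0988% each) of 2024. Between the lead groups, 21 of 2191 genes (0.958%) were at least 2-fold higher in Chrm3-led members and 18 (0.822%) in Alcam-led members. The lead groups and the 12 genes farthest apart in each direction were chosen with the values known.

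**Figure D3:**
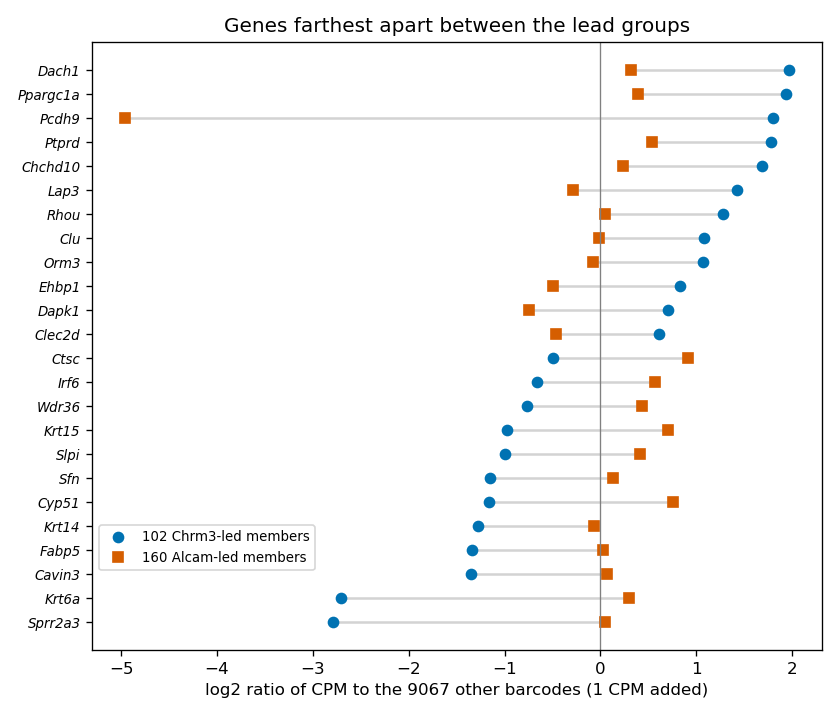
For each of the 24 genes farthest apart, the plot gives the log2 ratio of CPM in the 102 Chrm3-led and in the 160 Alcam-led members to the 9067 other barcodes. Chrm3-led values run from -2.79 for Sprr2a3 to 1.96 for Dach1, and the Alcam-led value of Pcdh9 stands for 0 UMIs and depends on the added 1 CPM.

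Ppargc1a was at 386, 132 and 100.1 CPM in Chrm3-led members, Alcam-led members and the others (1.54, 1.14 to 1.97 between the lead groups). In the same order Chchd10, a mitochondrial protein, was at 167, 60.6 and 51.2 CPM (1.45, 0.84 to 2.10). Dach1 was at 285, 90.0 and 72.2 CPM (1.65, 1.17 to 2.17), and Ptprd at 1002, 424 and 292 CPM (1.24, 1.00 to 1.48). Nuclear genes of the respiratory chain had a median of 0.014 in Chrm3-led members, with 10 above and 9 below 0. Chchd10 and Dach1 passed the 100 CPM minimum only through Chrm3-led members. The protocadherin Pcdh9 had 39 UMIs in Chrm3-led members and 0 in Alcam-led members, and it too passed only through the former, as did Lap3 and Rhou. The chaperone clusterin (Clu), the aminopeptidase Lap3, the GTPase Rhou and the acute phase protein Orm3, which has close copies, were also at least 2-fold higher in Chrm3-led members.

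Among the genes higher in Alcam-led than in Chrm3-led members, Krt14 was at 687, 1589.5 and 1661 CPM (-1.21, -1.42 to -1.01), and Krt15 at 410.5, 1318 and 809 CPM (-1.68, -1.94 to -1.43). Krt6a, a keratin of stressed epithelium, had 6 UMIs in Chrm3-led and 80 in Alcam-led members. The fatty acid-binding protein Fabp5 was at 728, 1875 and 1844 CPM (-1.36, -1.56 to -1.17), and the lysosomal protease cathepsin C (Ctsc) at 90.3, 242 and 128 CPM (-1.41, -2.02 to -0.87). Krt6a and Ctsc were below 100 CPM in Chrm3-led members and passed only through Alcam-led members.

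The lists of the lead groups were read at the minimum of 50 CPM. The 10 basal duct genes that passed did so in Chrm3-led members and in the others alike, with a median of -0.53 (9 of 10 below 0) in Chrm3-led and -0.024 in Alcam-led members, beside 0.097 and 0.030 for all genes with at least 100 CPM. Fluid secretion genes had a median of 0.35 in Chrm3-led and -0.0079 in Alcam-led members, where Aqp3 passed only through the latter. No median is given for the squamous, myoepithelial and striated duct lists, since some of their genes, such as Krt6a, Lgals7 and Scnn1a, passed only through the set where they were high. Summed over the whole list, squamous genes were at 2939 CPM in Chrm3-led members, 2959 CPM in Alcam-led members and 2987 CPM in the others, of which Sprr1a alone gave 2794, 2403 and 2440 CPM, so the sums mainly show this gene. The other 4 squamous genes that passed were at least 2-fold lower in Chrm3-led members, and all 4 passed only through the others. Myoepithelial genes summed to 947, 1174 and 1367 CPM in the same order. Long genes made up a median of 14.5% of the UMIs of Chrm3-led and 13.2% of those of Alcam-led members, and ribosomal protein genes 13.6% and 16.4%. The part of these shares in the differences was not tested.

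The same genes were read in the rankings by Chrm3 alone and by Alcam alone. Of their 300 barcodes 117 and 137 are members, and the genes were picked as far apart between the lead groups, so these values support nothing further. In that order, the ratios were 1.94 and -0.12 for Ppargc1a, 1.78 and -0.084 for Dach1 and 1.48 and -0.077 for Chchd10. They were -1.10 and 0.27 for Krt14, -2.39 and 1.24 for Krt6a and -1.28 and 0.59 for Fabp5. Hp was above 0 in both, with 1.15 and 0.66.

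Clustering without the 6 genes spread the members over the library. It gave 9 clusters, of which only a myoepithelial-like (cluster 7) and a cycling-like cluster (cluster 9) were given a name. The markers of cluster 7 were Acta2, Lgals7 and Csrp1. Cluster 6, with the luminal duct markers Krt8, Krt18, Cldn3 and Cldn7, was left unnamed. So was cluster 8, with the squamous markers Krt6a, Krt16, Krt13, Krtdap and Sbsn. Cluster 2 held the most members, 78 or 26.0% (21.1 to 31.4), and 22.4% of all eligible barcodes. Cluster 6 held 59 members (19.7%, 15.3 to 24.6) and 6.52% of eligible barcodes, so 9.66% of its barcodes were members, against 3.20% of all. Of the marker lists, the luminal duct-like one matched cluster 6 best. Its leading genes were Klk1b11, Sorbs2, Arhgef38, Hp, Cst6, Fn1, Mal, Adcy2, Chchd10 and Crisp1. It had the highest level of Chrm3 of the clusters at 353 CPM, beside 306 CPM of Alcam and 4.87 CPM of Aqp5. Aqp5 was highest in the myoepithelial-like cluster at 73.2 CPM, which held 6 members (2%, 0.737 to 4.30) and 2.89% of eligible barcodes. The cycling-like cluster held 0 of 300 members (upper limit 1.22%) and 1.28% of eligible barcodes, so this count of 0 says little.

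**Figure D4:**
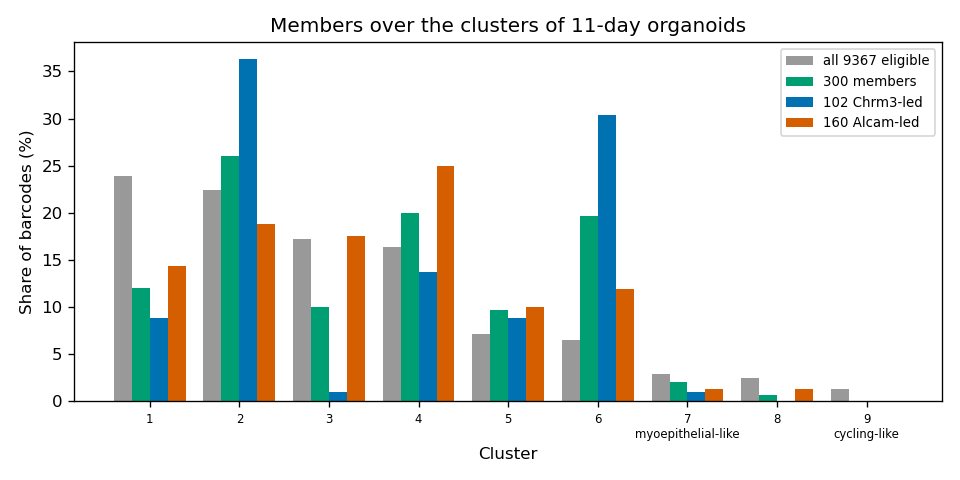
Bars give the share (%) of all 9367 eligible barcodes, of the 300 members, of the 102 Chrm3-led and of the 160 Alcam-led members in each of 9 clusters. Chrm3-led members stand highest in clusters 2 (36.3%) and 6 (30.4%), and Alcam-led members are spread over clusters 1 to 6, with 40 of 160 in cluster 4.

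The lead groups had different shares in the clusters. Of Chrm3-led members 36.3% were in cluster 2, 30.4% in cluster 6 and 1 member in cluster 3. Of the 160 Alcam-led members 40 were in cluster 4, 18.8% in cluster 2 and 17.5% in cluster 3, the cluster with Krt14 as a marker. Among the 15 nearest neighbours of a member 4.82% were members, against 2.43% of the neighbours of other barcodes. Scrublet marked 17 members (5.67%, 3.34 to 8.92) and 9.03% of the others as doublets.

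The 6 genes differed between the libraries, with Chrm3, Alcam and Clcn3 highest at day 11 and Aqp5, Bhlha15 and Slc12a2 highest in gland tissue. After every barcode was thinned to 2000 UMIs, Chrm3 was found in 13.4% (12.7 to 14.1) of 11-day barcodes, in 0.103% to 0.207% of barcodes of the 3 libraries of 7-day mSGOs and in 0.941% (0.471 to 1.68) of tissue barcodes. Alcam was in 37.1% at day 11, 4.73% to 6.41% at day 7 and 1.28% of tissue. Aqp5 was in 2.06% (1.78 to 2.37) at day 11, 6.01% in the 7-day control, 2.33% and 1.97% after photons and protons, and 26.1% (23.6 to 28.7) of tissue. Bhlha15 was in 5.05% (3.86 to 6.46) of tissue barcodes and in none of the thinned organoid barcodes. Slc12a2 was in 16.8% of tissue, 7.69% of 11-day and 0.616% to 1.59% of 7-day barcodes. Without thinning, Chrm3 was in 19.7% of 11-day and 2.40% of tissue barcodes, and Alcam in 51.6% of 11-day, 12.6% to 14.7% of 7-day and 3.76% of tissue barcodes.

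**Figure D5:**
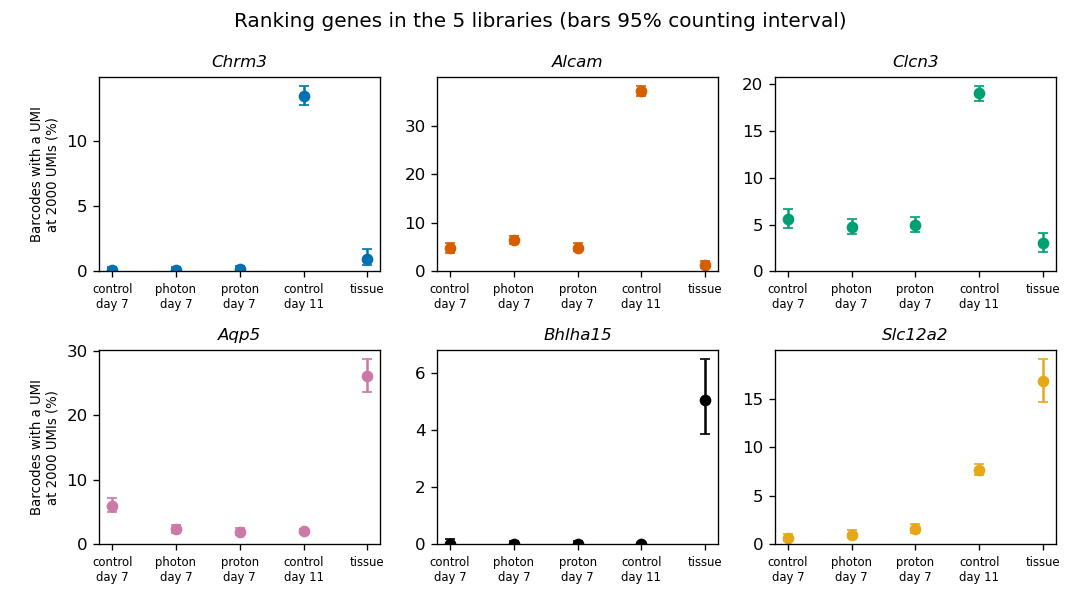
Points give the share (%) of eligible barcodes with at least 1 UMI of each gene after thinning to 2000 UMIs in the 5 libraries, with 95% counting intervals. Chrm3, Alcam and Clcn3 stand highest in 11-day mSGOs (13.4%, 37.1% and 19.1%), and Aqp5, Bhlha15 and Slc12a2 in tissue (26.1%, 5.05% and 16.8%).

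The share of UMIs that admitted the last member was reached by 1 of 1947 barcodes of the 7-day control, 1 of 2965 after photons, 0 of 2892 after protons and 12 of 1169 in tissue (1.03%, 0.532 to 1.79). The 11-day library also had a median long gene share of 12.4% against 0.382% to 2.05% in the other libraries, and a median Malat1 share of 3.18% against 0.0299% to 0.189%. It had another gene list and a later software version in its header, so age of the culture, animals, run and processing cannot be told apart in these shares. Of the member barcodes, 2 were also found in the 7-day control, 0 in the photon, 2 in the proton and 2 in the tissue library.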

How the data were processed

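Droplet-based 3′ single-cell RNA-seq was available for 5 mouse libraries, 1 per group, and the 11-day library was the one analysed in depth. The authors deposited whole-number UMI counts per gene and barcode. The submitters' processing notes name Cell Ranger 5 and mm10, the study's methods name GRCm39, and the file headers name version 3.0.1 (7-day and tissue) and 7.0.0 (11-day). Whether intronic reads were counted is not given in the sources used here. The 11-day list held 32285 genes, and 31674 had a span in GENCODE vM39 by gene ID.

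Barcodes with at least 2000 UMIs and at most 5% mitochondrial UMIs were ranked by the summed share of the 6 genes, with ties by file order. The members and gene lists were chosen with earlier results of these data known. UMIs were summed per set and scaled to CPM, and log2 ratios had 1 CPM added. A gene was considered with at least 50 CPM in the higher set (100 CPM for counts over all genes in the lead groups, 50 CPM for lists throughout) and counted at 2-fold or more. Intervals at 95% were exact Poisson (CPM), conditional binomial (ratios) and Clopper-Pearson (shares), and cover counting error only. No test was run, because each group had 1 library and cells are not replicates. Lists (29 besides the 6 genes) are described by the median of the genes that passed. Named genes were the 6, the 12 highest and 12 lowest ratios, the farthest 2 to 4 of each list with its defining genes, and genes the study names for 11-day populations. Other named genes were chosen after their values were seen.

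Doublets were scored with Scrublet (scanpy 1.11.5) and kept. Its automatic threshold marked under 0.5%, so the 855 highest scores of 10339 (8.27%) were marked. Clusters came from Leiden (leidenalg 0.10.2) at a resolution of 0.8. Alternatives changed the filters, the number of members, the genes and UMIs used for ranking, the barcodes compared, the scaling, the pseudocount and the minimum level. Comparisons with barcodes nearest in long gene share and rankings by Chrm3 or Alcam alone were added after the data had been seen. Calculations were tested on simulated counts. Promoters were taken from RefSeq (GRCm38.p6).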

Additional observations from a re-analysis of the deposited data

How the results depend on the processing

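No paired analysis was possible because each group has 1 library. Of the values with alternatives that answer a comparison, 168 stayed within their counting interval or within 1.5 times, 30 moved and 8 changed sign, and of the values of single genes and other details 727 stayed, 215 moved and 54 changed sign. The count of genes at least 2-fold higher (11) and lower (8) was 25 and 21 with a minimum of 20 CPM, 412 and 246 with no minimum, 22 and 23 when ranked without Alcam, 4 and 5 without Chrm3, 6 and 19 with at least 2500 genes per barcode, 6 and 4 against barcodes nearest in long gene share, 25 and 28 when ranked by Chrm3 alone, and 5 and 3 by Alcam alone. The higher count was 17 with 150 members, 7 with 600 and 7 when ranked without Slc12a2, and the lower count 15 without doublets and 4 after ranking on thinned counts. The leading cluster held 46.0% of members at a resolution of 0.4 and 18.7% at 1.2. Ranked without itself, Chrm3 was at 0.062 with at least 2500 genes, 0.12 with 600 members, 0.15 with at most 10% mitochondrial UMIs, 0.22 on thinned counts and 0.24 in the split, Alcam at 0.18 on thinned counts and -0.39 in the split, Clcn3 at -0.25 in the split and Slc12a2 at -0.17 with at least 2500 genes. With at least 2500 genes Serpinb11 was at -0.25, Krt7 at -0.13 and Cldn4 at -0.11. Ranked without Chrm3, Dach1 was at -0.25, Lgals7 at 0.043, Krt14 at 0.092, Krt5 at 0.046, Krt17 at 0.066 and Cldn4 at -0.073. The secretory regulators had a median of -0.039 when ranked without Alcam and -0.034 by Chrm3 alone, where Serpinb11 was at -0.64. By Alcam alone the fluid secretion median was -0.040, Ppargc1a was at -0.12, Dach1 at -0.084, Tc2n at -0.19, Slit2 at -0.049, Sprr2f at 0.95, Lgals7 at 0.18, Cxcl5 at 0.93, Cd164 at -0.13, Krt14 at 0.27, Krt5 at 0.15, Krt17 at 0.19, Cldn4 at -0.17, Mki67 at 0.37 and Top2a at 0.85. By Aqp5 and Bhlha15 the medians were 0.62 for secretory products (with Dcpp1 and Dcpp3, almost all from 1 barcode, among the genes that passed), -0.32 for fluid secretion and -0.032 for secretory regulators, and Hp was at -0.28, Adcy2 at -0.96, Ppargc1a at -1.29, Dach1 at -1.05, Chst9 at -0.70, Tc2n at -0.81, Ptprd at -1.09, Cyp1b1 at -0.48, Slit2 at -0.64, Celf2 at -0.45, Nr3c2 at -0.23, Wfdc18 at 1.22, Sostdc1 at 1.42, Lgals7 at 1.03, Cd164 at -0.21, Trp63 at 0.14, Krt14 at 0.46, Krt5 at 0.16, Krt7 at -0.037, Krt17 at 0.18, Cldn4 at -0.64, Mki67 at 1.62, Top2a at 1.80 and Sparc at 0.38. List medians also turned with the ranking. By Alcam alone they were -0.086 for end bud progenitor, 0.28 for squamous, 0.058 for myoepithelial, -0.052 for Wnt, 0.017 for hypoxia and glycolysis, -0.048 for antigen presentation, -0.11 for antioxidant and iron and -0.011 for mitochondrially encoded genes. By Chrm3 alone they were -0.19 for end bud progenitor, 0.0074 for EGF receptor and FGF and 0.051 for respiratory chain genes. By Aqp5 and Bhlha15 they were 0.12 for stem/progenitor, -0.21 for luminal duct, -1.09 for striated duct, 0.067 for basal duct, 0.40 for myoepithelial, -0.11 for Notch, -0.12 for Wnt, 0.22 for hypoxia and glycolysis, -0.083 for interferon response, -0.10 for antigen presentation, -0.19 for antioxidant and iron, -0.097 for nuclear retained, 0.021 for respiratory chain and 0.18 for ribosomal protein genes. On thinned counts Sprr2f was at 1.72, Cxcl2 at 0.38 and Cxcl5 at 0.31, with at least 4000 UMIs Sprr2f at 0.077, against barcodes nearest in UMI number Krt13 at 0.021, and in the split Cd164 at -0.011. The cause of these changes was not tested, beyond the smaller or larger number of genes that a minimum considers.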
